A study of Mus musculus with 8 samples.

Results

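The genes of the 6 peroxiredoxins (Prdx1 to Prdx6) and of 4 further antioxidant proteins (Txn1, Txnrd1, Sod1 and Cat) were examined in the prostates of NOD mice, an inbred strain that develops autoimmune inflammation. The 10 genes were taken by symbol from a table of read counts for 54532 genes, all 10 were found and all 10 passed the expression filter. The members were chosen by gene name, with no threshold on a measured value, but the list was drawn up with earlier results of these data known, so the choice of genes is not independent of their measured levels and fold changes, which are given as a description. Prostates of 8 male NOD/ShiLtJ mice were sequenced, 4 from animals injected with the PBS vehicle (control 1, 3, 65 and 69) and 4 from animals injected with etanercept at 4 mg/kg (etanercept 17, 19, 50 and 52), a soluble receptor protein that binds the inflammatory cytokine TNF. Both groups received 2 injections per week for 5 weeks and were harvested at 30 weeks of age. Each sample was the frozen prostate tissue of a single mouse, diabetic and non-diabetic animals were not separated in the groups, and the labels do not say which prostate lobes a sample held.

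Aerobic cells constantly form superoxide and hydrogen peroxide. Superoxide dismutases turn superoxide into hydrogen peroxide, which is then removed by peroxiredoxins, glutathione peroxidases and catalase. Most peroxiredoxins are returned to their active form by thioredoxin, which thioredoxin reductase recharges with NADPH, whereas Prdx6 has a single catalytic cysteine and draws on glutathione. Secretory epithelium such as that of the prostate folds and exports large amounts of protein, and protein folding in the endoplasmic reticulum itself produces hydrogen peroxide. Many genes of this system are targets of the transcription factor NRF2, which binds the antioxidant response element.

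Mice had total counts between 13760669 and 25178942. The counts of the 9 genes other than Prdx6 lay between 443 and 13324 per gene and mouse, and those of Prdx6 between 42351 and 305086, so counting error was small beside the differences between mice. Levels are given as CPM, counts scaled to a common library size, with TMM correction for differences in library composition. Prostate marker genes were found in every mouse, with 1094 to 9172 CPM for Pbsn (probasin) and 324.4 to 851.1 CPM for Hoxb13. Genes of the seminal vesicle, which lies next to the prostate, were very uneven: the summed level of 7 seminal vesicle markers was 97204 CPM in etanercept 17 and 4001 CPM in control 69, and the other 6 mice did not exceed 667.8 CPM. For the 10 genes, fold changes without etanercept 17 or control 69 are given where the sign turned or the value moved by over 1.5 times. They are not given for genes of other lists.

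The upstream sequences of 3 of the genes are shown because they hold the core of the antioxidant response element, TGACNNNGC. It was searched on both strands of windows from 250 bases before to 50 bases after the transcription start sites of RefSeq (GRCm38.p6). The table gave 11 windows for 9 of the 10 genes, and 3 windows, of Prdx1, Txnrd1 and Sod1, held 1 match each, all on the reverse strand. Of all 32851 windows in the table, 12.4% held a match. The 150 bases before the start site are printed, from chr4:116685449-116685598 for Prdx1, chr10:82859056-82859205 for Txnrd1 and chr16:90220612-90220761 for Sod1, all on the forward strand, with the match in capitals.
Prdx1: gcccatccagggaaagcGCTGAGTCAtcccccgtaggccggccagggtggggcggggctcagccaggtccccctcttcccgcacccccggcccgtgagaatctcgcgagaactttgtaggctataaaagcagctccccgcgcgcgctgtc
Txnrd1: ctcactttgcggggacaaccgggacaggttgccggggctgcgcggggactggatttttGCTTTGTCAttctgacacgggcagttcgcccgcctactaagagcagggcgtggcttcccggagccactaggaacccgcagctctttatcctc
Sod1: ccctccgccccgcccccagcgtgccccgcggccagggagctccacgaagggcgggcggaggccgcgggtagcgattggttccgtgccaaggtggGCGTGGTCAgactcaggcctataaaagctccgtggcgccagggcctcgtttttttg
The match began 133 bases before the start site in Prdx1, 92 bases in Txnrd1 and 56 bases in Sod1. A match describes these letters only and does not show binding. Windows without a match were those of Prdx2, Prdx3, Prdx4, Prdx5, Txn1, Cat and the other 2 of Txnrd1.

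Prdx6 took a far larger share of the reads than any other member. Its gene lies on chromosome 1 (GRCm38, 161240112 to 161251219, reverse strand), and its product reduces hydrogen peroxide and phospholipid peroxides and also has phospholipase activity. With a mean of 6485 CPM it was the gene with the 8th highest mean of the 15472 tested genes. Its level was 11032, 5262, 9602 and 2451 CPM in control 1, 3, 65 and 69 and 9699, 4574, 2567 and 6692 CPM in etanercept 17, 19, 50 and 52. Both groups thus held mice with high and with low Prdx6, and the highest value of the 8 mice was 4.50 times the lowest. As a share of all counts it was 1.21% in control 1 (95% Wilson interval 1.207% to 1.216%) and 0.224% in control 69 (0.2223% to 0.2266%), where the intervals cover counting error only.

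**Figure D1:**
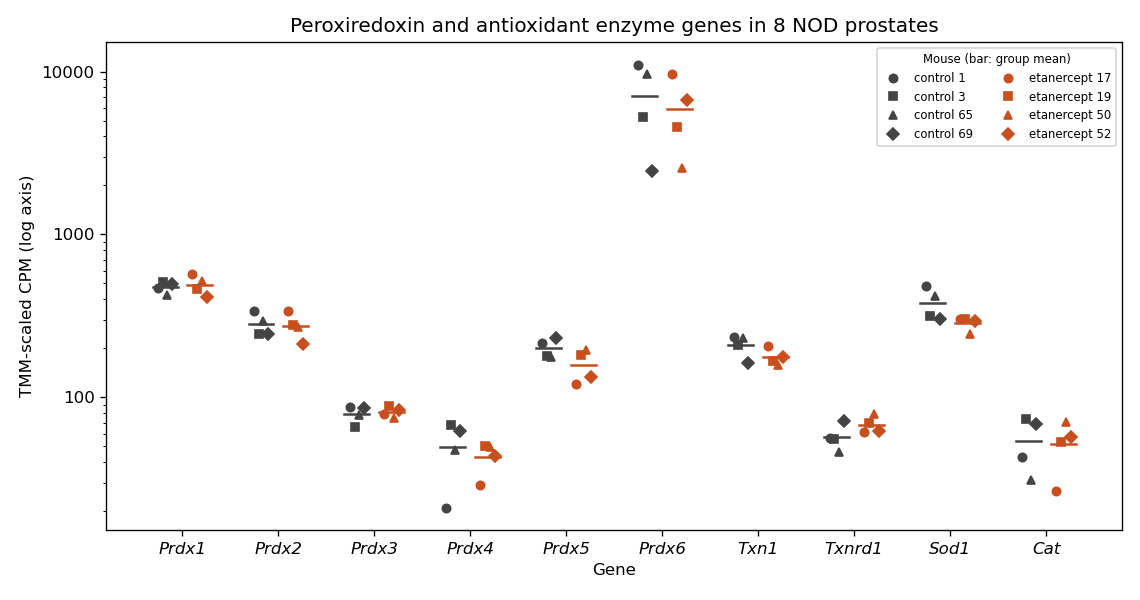
Levels of the 10 genes in each mouse (TMM-scaled CPM, log axis), with control mice in grey, etanercept-treated mice in orange and a bar at the mean of each group of 4. Prdx6 lies between 2451 and 11032 CPM, apart from the other 9 genes, which reach 569.7 CPM (CPM is not corrected for gene length), and the groups overlap in all 10 genes.

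The other members were steadier between mice than Prdx6. Together the 9 other genes gave between 1473 CPM, in etanercept 52, and 1948 CPM, in control 1. Within a mouse, the ratio of Prdx6 to the sum of the 5 other peroxiredoxins, both in CPM and not per length, ran from 2.19 in control 69 to 9.75 in control 1. The coefficient of variation over the 8 mice was 51.3% in Prdx6, 34.0% in Cat and 33.6% in Prdx4, and between 9.65% and 23.2% in the other 7 genes. Of all tested genes, 68.2% had a lower coefficient of variation than Prdx6, but only 1.36% had a lower one than Prdx3 and 2.44% a lower one than Prdx1.

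The mice with much Prdx6 were those with little Sbp. Sbp encodes a spermine-binding secretory protein of the prostate and was the most abundant gene of the series. It had 1547, 63887, 15637 and 225760 CPM in control 1, 3, 65 and 69 and 1618, 174100, 180220 and 55954 CPM in etanercept 17, 19, 50 and 52. The order of the 8 mice by Sbp was exactly the reverse of their order by Prdx6. The second most abundant gene, 9530053A07Rik, had 75623, 33177, 90805 and 12005 CPM in control 1, 3, 65 and 69 and 92392, 34467, 15601 and 88608 CPM in etanercept 17, 19, 50 and 52. Its 4 highest levels were those of the 4 mice with most Prdx6. Pbsn had 9172 CPM in control 1 and 1094 CPM in control 69, the mice with most and least Prdx6. Sbp and Pbsn belonged to the marker list for prostate luminal cells, while 9530053A07Rik and the comparison of orders were chosen after their values were seen. In bulk tissue, fewer cells of a type and less RNA per cell cannot be told apart, and the part of lobe composition in the spread of Prdx6 was not tested.

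**Figure D2:**
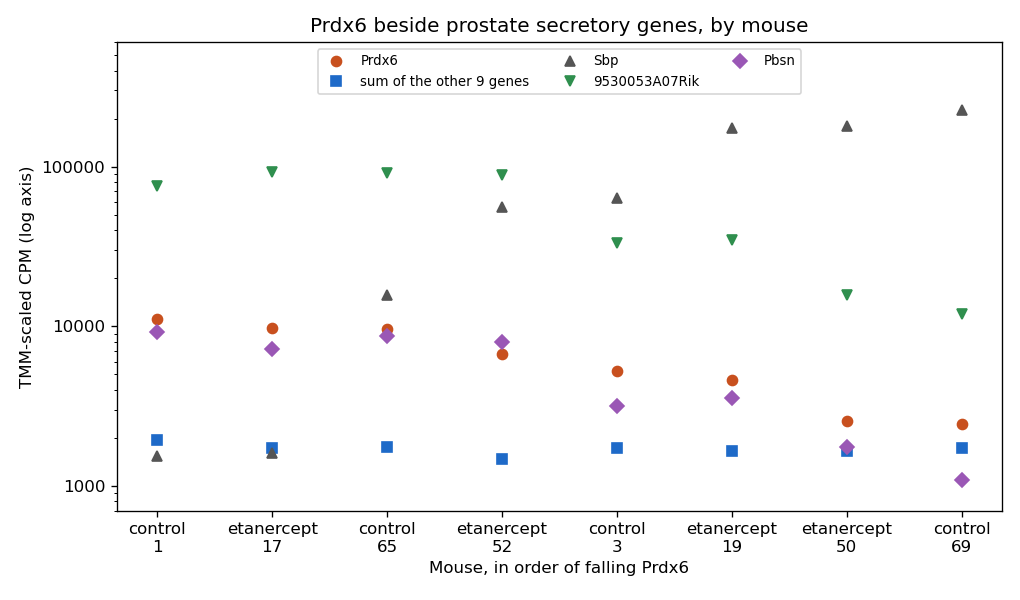
Level of Prdx6, of the sum of the other 9 genes and of the secretory genes Sbp, 9530053A07Rik and Pbsn (TMM-scaled CPM, log axis), with the 8 mice placed in order of falling Prdx6. From control 1 to control 69 Prdx6 goes from 11032 to 2451 CPM while Sbp goes from 1547 to 225760 CPM, and the sum of the other 9 genes stays between 1473 and 1948 CPM.

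Over the 8 mice, the level of Prdx6 was compared with that of each other member on the scale of log2(CPM + 1), 9 relations chosen after the values were seen. The closest was with Txn1, the cytosolic thioredoxin (Pearson's r = 0.873, exact permutation p = 0.00732; Spearman's rho = 0.857, exact permutation p = 0.0107). Sod1 also had a positive Pearson's r of 0.721 (exact permutation p = 0.0397), with a Spearman's rho of 0.476 (exact permutation p = 0.243). Cat, Txnrd1 and Prdx4 had Pearson's r of −0.79, −0.787 and −0.697 (exact permutation p = 0.0235, 0.0196 and 0.0511) and Spearman's rho of −0.714, −0.714 and −0.81 (exact permutation p = 0.0576, 0.0576 and 0.0218). After Benjamini-Hochberg adjustment over the 9 relations the smallest exact permutation p was 0.0658 for r and 0.0964 for rho, so none of the pooled relations passed 0.05. Without control 69 and etanercept 50, the mice farthest from the median of Prdx6, r was 0.774 for Txn1, 0.673 for Sod1, −0.755 for Cat, −0.524 for Txnrd1 and −0.781 for Prdx4. With Prdx1, Prdx2, Prdx3 and Prdx5, Pearson's r was −0.222, 0.544, 0.0615 and −0.478 (exact permutation p = 0.587, 0.167, 0.894 and 0.23), and Spearman's rho was −0.119, 0.667, 0.0714 and −0.476 (exact permutation p = 0.793, 0.0831, 0.882 and 0.243). Without the same mice, r was 0.0961 for Prdx1, 0.648 for Prdx2, 0.188 for Prdx3 and −0.0353 for Prdx5. All values of a mouse share 1 library.

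The same 9 relations were then computed within the treatment groups, with each value centred on its group mean and exact permutation within the groups, a test added after the pooled values were seen. Txn1 had the same order of mice as Prdx6 in both groups (r = 0.96, exact permutation p = 0.00174, adjusted 0.0156; rho = 1, exact permutation p = 0.00347, adjusted 0.0312), and these are the smallest p-values that the 576 permutations can give for each measure. The centred r was −0.871 for Txnrd1, 0.849 for Sod1 and −0.806 for Cat (exact permutation p = 0.0156, 0.0226 and 0.0399, adjusted 0.0677, 0.0677 and 0.0898), with rho of −0.7, 0.7 and −0.7 (exact permutation p = 0.111 each, adjusted 0.143). For Prdx4, Prdx5, Prdx2, Prdx1 and Prdx3, r was −0.721, −0.71, 0.54, −0.211 and 0.0874 and rho −0.8, −0.7, 0.7, −0.2 and 0.3, where the smallest exact permutation p was 0.0642 for r and 0.0625 for rho. Of the 9 relations, only that with Txn1 passed 0.05 after adjustment within the groups, and it did not pass over the pooled mice. Each adjustment covers the 9 relations of r or of rho alone, and not the pooled tests of the same mice. Txn1 was already known as the closest pooled relation, so its within-group values are given as a description. Whether other tested genes follow Prdx6 as closely within the groups was not tested.

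To set the genes in an order, levels were divided by gene length and given as CPM per kb. With the union of all annotated exons as length, the mean over 8 mice was 1350 CPM per kb for Prdx6, 184.1 for Txn1, 159.0 for Prdx1, 91.0 for Prdx2, 83.7 for both Sod1 and Prdx5, 54.4 for Prdx3, 22.0 for Prdx4, 20.3 for Cat and 8.83 for Txnrd1. Of neighbours in this order, the higher mean held in 8 of 8 mice for Prdx6 over Txn1, Prdx1 over Prdx2, Prdx5 over Prdx3, Prdx3 over Prdx4 and Cat over Txnrd1, and in 6 of 8 for Txn1 over Prdx1. By this length, Prdx2 and Sod1, Sod1 and Prdx5, and Prdx4 and Cat did not differ beyond their spread, since the higher mean held in 5, 4 and 5 of 8 mice. Of the summed level of the 6 peroxiredoxins per kb, Prdx6 made up between 53.7% and 84.1% in single mice.

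The place of Sod1 depended on the length used. Sod1, the gene of the cytosolic superoxide dismutase, has an annotated principal transcript of 641 nt, but a transcript with a retained intron extends both the union of exons and the longest transcript to 3970 nt. With the principal transcript of each gene, a choice made after the data were seen, Sod1 had 518.5 CPM per kb and was second to Prdx6, at 2717, and above Prdx1, at 210.8, in 8 of 8 mice. The genes from Prdx3 down to Txnrd1 kept the order of their means with all 3 lengths, but not the counts of mice. With the longest or the principal transcript, Prdx4 exceeded Cat in 8 of 8 mice. Prdx3 exceeded Prdx4, and Cat exceeded Txnrd1, in 6 of 8 mice with either of these lengths. Prdx1 also exceeded Txn1 in 6 of 8 mice with either, the reverse of the order by the exon union.

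**Figure D3:**
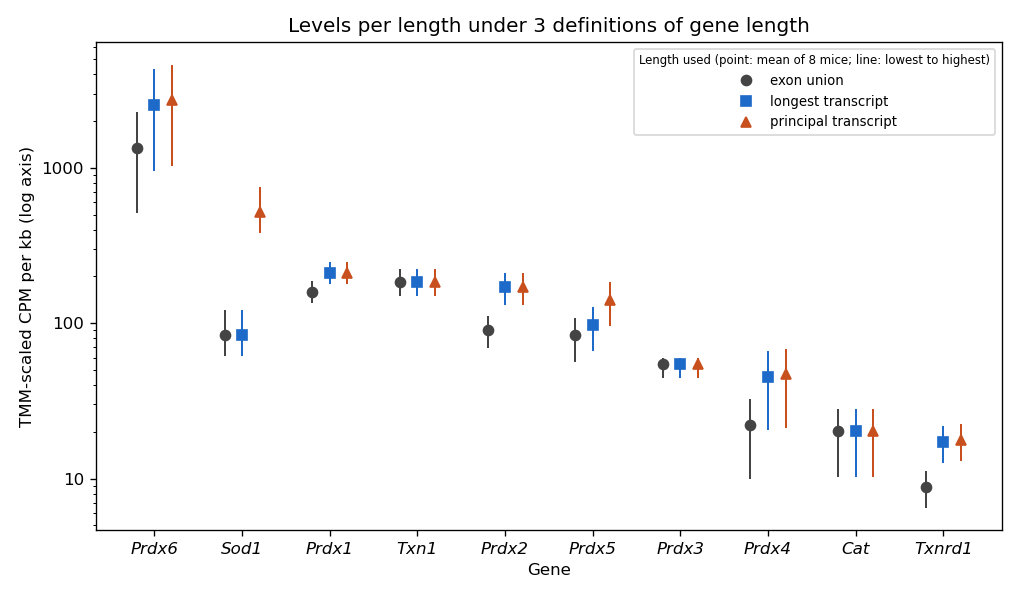
Level per length (TMM-scaled CPM per kb, log axis) of the 10 genes with the exon union, the longest transcript or the principal transcript as length. Points are means of 8 mice and lines run from the lowest to the highest mouse. Prdx6 is highest with each length, from 1350 to 2717 CPM per kb, and Sod1 moves from 83.7 to 518.5 CPM per kb.

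The treatment groups were compared in edgeR over all 15472 tested genes. With the quasi-likelihood test and Benjamini-Hochberg adjustment at 0.05, edgeR called 0 of the 10 genes, beside 0.00% of all tested genes, and DESeq2 called 0 of the 10, beside 0.115% of the genes to which it gave an adjusted p. At an unadjusted p of at most 0.05, 0 of the 10 genes passed in edgeR, beside 6.62% of all tested genes, and 1 of the 10, Sod1, passed in DESeq2, beside 5.84%. The adjusted p of the 10 genes lay between 0.769 and 0.997 in edgeR, and the smallest of all genes was 0.739. The median log2 fold change was −0.13 in the 10 genes and −0.0099 in all tested genes, where a negative value means a lower level with etanercept. The median of the 10 genes was −0.064 without control 3, −0.081 without control 1 and −0.083 without control 69. With each mouse's trend of expression with gene length removed, it was −0.0088 with the exon union as length and −0.048 with the principal transcript, the latter a correction chosen after the data were seen. Of the 10 genes, 7 had a negative value, beside 51.0% of all genes. The values of the 2 groups overlapped in all 10 genes. Of all tested genes, 4.94% did not overlap, 2.53% with lower and 2.41% with higher levels under etanercept. Beside a share this small, 0 of 10 does not set the members apart.

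Prdx6 had 7087 ± 3946 CPM (SD, n = 4) in the control group and 5883 ± 3051 CPM (SD, n = 4) with etanercept, and a log2 fold change of −0.27 (SE 0.54). This difference did not exceed the SD of either group, and the log2 fold change was 0.012 without control 1, −0.55 without control 69 and −0.62 without etanercept 17. Prdx6b, a gene of the same family, had 0 counts, where 3 counts would be at most 2.18e-05% of a mouse's total, and the pseudogene Prdx6-ps2 had 64 counts in all mice together, 0.00671% of those of Prdx6.

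Sod1 (chromosome 16, 90220754 to 90226329) had the largest difference between the groups relative to its standard error. Its level was 481.8, 314.3, 417.5 and 301.3 CPM in control 1, 3, 65 and 69 and 300.6, 304.1, 245.5 and 293.8 CPM in etanercept 17, 19, 50 and 52. The 4 etanercept-treated mice lay close together, all below the control mean, and etanercept 17 and 19 lay near control 69. The log2 fold change was −0.41 (SE 0.20, adjusted p = 0.769 by the edgeR test) and remained negative, from −0.50 to −0.28, when any 1 mouse was dropped. With the trend of expression with gene length removed it was −0.42 by the exon union, which for Sod1 holds the retained intron, and −0.10 by the principal transcript. The list of related genes held 2 other dismutases, Sod2 and Sod3, and the chaperone gene Ccs, with 1 positive and 2 negative log2 fold changes and a median of −0.17. Ccs, the copper chaperone that loads the Sod1 protein, had 49.5 ± 5.33 CPM (SD, n = 4) in the control group and 41.8 ± 7.36 CPM (SD, n = 4) with etanercept, a log2 fold change of −0.24 (SE 0.17). The mitochondrial Sod2 had 108.6 ± 8.05 and 113.4 ± 10.7 CPM, and the secreted Sod3 had 15.6 ± 8.65 and 13.8 ± 9.62 CPM (SD, n = 4 each).

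Prdx5 (chromosome 19, 6906697 to 6910106), a peroxiredoxin of mitochondria, peroxisomes and cytosol, had 214.7, 179.1, 176.1 and 231.9 CPM in control 1, 3, 65 and 69 and 120.4, 181.2, 195.8 and 132.5 CPM in etanercept 17, 19, 50 and 52. Only etanercept 17 and 52 lay below the control mice. The log2 fold change was −0.35 (SE 0.20), and with the length trend removed −0.26 by the exon union and −0.22 by the principal transcript. Of its exon length, 19.1% overlaps that of Trmt112 on the other strand, and since the use of strand in counting is not stated, reads from this stretch cannot be assigned with certainty.

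The gene of thioredoxin, Txn1 (chromosome 4, 57943373 to 57956411), and that of its reductase, Txnrd1 (chromosome 10, 82833951 to 82897712), had fold changes of opposite sign. Txn1 had 235.6, 210.1, 230.5 and 162.4 CPM in control 1, 3, 65 and 69 and 207.5, 166.2, 158.2 and 177.5 CPM in etanercept 17, 19, 50 and 52. All 4 etanercept-treated mice lay below the control mean, but control 69 lay below 3 of them. The log2 fold change of Txn1 was −0.24 (SE 0.17), and with the length trend removed it was −0.0020 by the exon union and −0.048 by the principal transcript. Txnrd1 had 56.1, 55.3, 45.9 and 71.4 CPM in the control mice and 61.7, 69.2, 79.1 and 62.1 CPM in the etanercept-treated mice, a log2 fold change of 0.25 (SE 0.17), and control 69 lay above 3 of the 4 etanercept-treated mice. The log2 fold change of Txnrd1 was 0.38 without control 69 and 0.14 without control 65, and with the length trend removed it was 0.14 by the exon union and 0.18 by the principal transcript.

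Prdx4 and Cat differed strongly between mice of one group. Prdx4 (chromosome X, 155323918 to 155340754) encodes the peroxiredoxin of the endoplasmic reticulum, which acts in oxidative protein folding. It had 20.97, 68.1, 47.7 and 61.9 CPM in control 1, 3, 65 and 69 and 28.9, 50.2, 49.6 and 43.4 CPM in etanercept 17, 19, 50 and 52. Cat (chromosome 2, 103453849 to 103485160) encodes catalase of peroxisomes and had 43.0, 73.6, 31.2 and 68.7 CPM in the control mice and 26.6, 53.1, 71.0 and 57.4 CPM in the etanercept-treated mice. Prdx4 was lowest in control 1 and etanercept 17, and Cat in etanercept 17, control 65 and control 1, which were also the 3 mice with least Sbp. The log2 fold changes were −0.21 (SE 0.34) for Prdx4 and −0.058 (SE 0.34) for Cat, and without etanercept 17, the mouse with the high seminal vesicle markers, they were −0.055 and 0.16. For Prdx4 the value was −0.48 without control 1, −0.021 without control 3 and −0.081 without control 69, and with the length trend removed −0.13 by the exon union and −0.048 by the principal transcript. For Cat it was −0.27 without control 65, 0.12 without control 3 and 0.079 without control 69, −0.016 with the length trend removed by the exon union and −0.083 by the principal transcript, and −0.13 with library size alone.

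Prdx1, Prdx2 and Prdx3 had the fold changes closest to 0 before the length trend was removed. Prdx1 (chromosome 4, 116685544 to 116700822), a cytosolic peroxiredoxin, had 477.0 ± 37.3 CPM (SD, n = 4) in the control group and 490.4 ± 69.5 CPM (SD, n = 4) with etanercept, and a log2 fold change of 0.040 (SE 0.17). Prdx2 (chromosome 8, 84969587 to 84974834), which is cytosolic and also abundant in red blood cells, had 280.2 ± 45.3 and 275.2 ± 51.995 CPM, a log2 fold change of −0.026 (SE 0.20). Prdx3 (chromosome 19, 60864051 to 60874556), the peroxiredoxin of mitochondria, had 79.2 ± 10.1 and 81.6 ± 5.98 CPM, a log2 fold change of 0.042 (SE 0.15). The sign of these 3 values changed with the scaling, the length correction or the mouse left out, and without etanercept 17 Prdx1 had −0.038 and Prdx2 −0.14. Without control 69 the values were 0.061 for Prdx1, −0.085 for Prdx2 and 0.088 for Prdx3. With the length trend removed Prdx3 had 0.20 by the exon union and 0.14 by the principal transcript, and Prdx1 had 0.068 and 0.041. In single mice Prdx1 ran from 410.4 CPM in etanercept 52 to 569.7 CPM in etanercept 17, Prdx2 from 212.8 CPM to 339.8 CPM in the same animals, and Prdx3 from 65.7 CPM in control 3 to 88.8 CPM in etanercept 19. The summed level of 7 red blood cell markers, 4 of them detected in every mouse, was highest in control 69, at 382.2 CPM, where Prdx2 had 243.8 CPM. It was 253.7 CPM in etanercept 17, where Prdx2 was highest at 339.8 CPM. Control 1 was second highest in both, with 309.1 CPM of the markers and 338.9 CPM of Prdx2, and etanercept 52 was lowest in both, with 133.8 and 212.8 CPM. The part of red blood cells in the level of Prdx2 was not tested. Of the exons of Prdx2, 5.67% overlap those of Junb and 5.80% those of Rnaseh2a on the other strand.

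**Figure D4:**
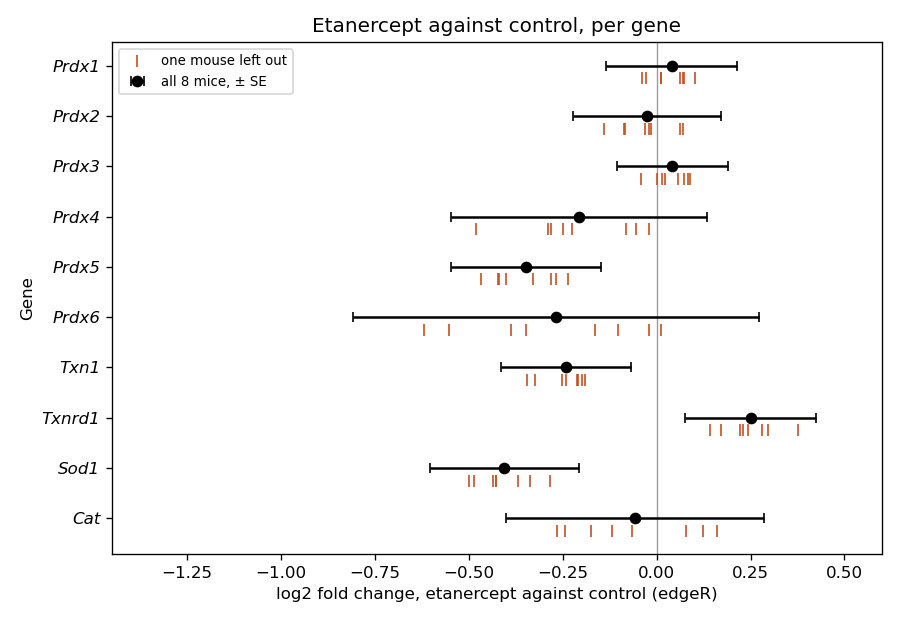
Log2 fold change of etanercept-treated against control mice for each gene (point, with a bar of 1 SE) and the values with 1 mouse left out (orange ticks). Values run from −0.41 in Sod1 to 0.25 in Txnrd1, and with a mouse left out Prdx1, Prdx2, Prdx3, Prdx6 and Cat take both signs.

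Of 13 marker lists for cell types, 12 had summed levels that overlapped between the groups, and no list was tested. The exception was the sum of 7 adipocyte markers, at 51.9 to 709.6 CPM in controls and 20.2 to 39.5 CPM with etanercept, without overlap, and 3 of the 7 were detected in every mouse. Singly, Cfd and Retn did not overlap, whereas Adipoq, Plin1, Fabp4, Cidec and Lep did. Cfd had 27.9 to 383.9 CPM in controls and 0.12 to 12.5 CPM with etanercept. Of the 51.9 CPM in control 65, the lowest control, 27.9 CPM was Cfd. Smooth muscle markers, 6 of 6 detected in every mouse, gave 3350 to 6987 CPM in controls and 6423 to 13767 CPM with etanercept. Among them, Cnn1 had 273.9 to 1059 CPM in controls and 1301 to 2981 CPM with etanercept, without overlap. Tagln, at 17.6 to 35.0 and 35.9 to 61.0 CPM, did not overlap either, whereas Acta2, Myh11, Des and Actg2 did. Macrophage markers, 6 of 6 detected in every mouse, gave 287.6 to 909.1 CPM in controls and 230.6 to 313.4 CPM with etanercept, with control 69 inside the range of the treated mice. The sums of epithelial markers, 6 of 6 detected in every mouse, overlapped, at 2786 to 3613 CPM in controls and 2899 to 3400 CPM with etanercept, but the sum holds markers with opposite differences. Krt19 had 483.9 to 564.9 CPM in controls and 280.4 to 463.2 CPM with etanercept, without overlap, and Cd24a 568.9 to 778.2 CPM in controls and 656.0 to 1476 CPM with etanercept. The trend of expression with gene length differed as well, with Spearman's rho across genes, which are not independent replicates, from −0.159 to −0.0113 in the controls and from 0.064 to 0.154 with etanercept. With that trend removed, the smallest unadjusted edgeR p of the 10 genes was 0.0608 by the exon union and 0.326 by the principal transcript, beside 0.0694 without removal. The part of cell composition in the fold changes was not tested.

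Further genes of the antioxidant system were examined in 8 lists, written by hand with earlier results of these data known. In each list 0 genes passed an adjusted p of 0.05 in edgeR, and at an unadjusted p of at most 0.05 each list held 0 or 1 genes with a higher level and 0 or 1 with a lower level with etanercept, beside 2.99% and 3.63% of all tested genes. The genes named here are the 3 with the smallest unadjusted p of a list, so their differences are among the larger of that list by choice. Their adjusted p by the edgeR test was 0.739 or more.

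Among 15 other genes of the thioredoxin and glutaredoxin system, 7 had a positive and 8 a negative log2 fold change, with a median of −0.027. Txnip, whose product binds and inhibits thioredoxin, had 779.1, 1079, 1407 and 881.5 CPM in control 1, 3, 65 and 69 and 466.2, 654.6, 645.8 and 233.3 CPM in etanercept 17, 19, 50 and 52. Its groups did not overlap, and the log2 fold change was −1.05 (SE 0.34). Glrx5, a mitochondrial glutaredoxin, had a log2 fold change of −0.29 (SE 0.18), and Sesn1, a sestrin, one of −0.23 (SE 0.15).

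Of the glutathione peroxidases and genes of glutathione synthesis, 13 of 15 were tested, 10 with a positive and 3 with a negative log2 fold change, and the median was 0.10. Gclc, the catalytic subunit of the enzyme that limits glutathione synthesis, had 30.0 ± 9.68 CPM (SD, n = 4) in the control group and 44.0 ± 6.48 CPM (SD, n = 4) with etanercept, and Gpx1, the cytosolic glutathione peroxidase, had 416.9 ± 95.7 and 478.1 ± 78.4 CPM. Ggt1, which breaks down extracellular glutathione, had a log2 fold change of 0.59 (SE 0.45). Its highest levels were 69.4 CPM in etanercept 17 and 63.3 CPM in control 69. Of the glutathione S-transferases 19 of 23 were tested, 8 with a positive and 11 with a negative value and a median of −0.033. Their smallest unadjusted p belonged to Mgst1, a membrane-bound transferase, with 57.1 ± 16.5 CPM (SD, n = 4) in the control group and 35.9 ± 9.83 CPM (SD, n = 4) with etanercept. Mgst3 and Gstm5 had log2 fold changes of −0.42 (SE 0.24) and 0.52 (SE 0.33). Gstm5 had 64.9 CPM in etanercept 17 but 29.0, 30.4 and 19.8 CPM in etanercept 19, 50 and 52. Its control mean was 25.1 CPM, so its fold change rests largely on etanercept 17.

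The NRF2 pathway list, to which Gclc also belongs, had 12 positive and 13 negative log2 fold changes and a median of −0.029. Tkt, the transketolase of the pentose phosphate pathway, had 213.4 ± 27.8 CPM (SD, n = 4) in the control group and 164.5 ± 7.495 CPM (SD, n = 4) with etanercept, without overlap. Bach1, a repressor at antioxidant response elements, had a log2 fold change of 0.47 (SE 0.23). Of the metallothioneins, which bind metals and scavenge radicals, Mt1 ran between 898.3 and 2619 CPM and was highest in control 1 and etanercept 17, as Prdx6 was. Mt2 had 16.1 ± 7.08 CPM (SD, n = 4) in the control group and 6.83 ± 1.99 CPM (SD, n = 4) with etanercept, Mt3 had a log2 fold change of 0.0010, and the median of the 3 tested genes was −0.047.

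Among enzymes that form superoxide or hydrogen peroxide, 12 of 17 were tested, with 4 positive and 8 negative log2 fold changes and a median of −0.21. Maoa, the monoamine oxidase of mitochondria, had 29.4 ± 3.01 CPM (SD, n = 4) in the control group and 44.1 ± 4.47 CPM (SD, n = 4) with etanercept, without overlap. Cyba and Ncf4, subunits of the phagocyte NADPH oxidase, had log2 fold changes of −0.76 (SE 0.32) and −0.67 (SE 0.30). Of the peroxisome genes 16 had a positive and 9 a negative value, with a median of 0.14. Ehhadh, an enzyme of peroxisomal fatty acid oxidation, had 21.9 ± 6.90 CPM (SD, n = 4) in the control group and 37.4 ± 3.27 CPM (SD, n = 4) with etanercept, without overlap. Pex14, a part of the peroxisomal import machinery, and Hsd17b4, of the same oxidation pathway as Ehhadh, had log2 fold changes of −0.53 (SE 0.22) and 0.37 (SE 0.22).

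For each of the 10 genes, the tested gene outside the list with the closest pattern over the 8 mice was sought by Pearson's r of log2(CPM + 1). All values of a mouse share a library and its depth, and the closest of 15472 genes is high by choice, so r is given as a description. For Prdx6 it was Itga3, a subunit of an integrin of epithelial cells, with r = 0.995 over 8 mice. Itga3 had 112, 66.9, 102 and 44.5 CPM in control 1, 3, 65 and 69 and 94.9, 61.5, 45.8 and 77.3 CPM in etanercept 17, 19, 50 and 52, the order of mice by Prdx6 but for etanercept 17 and control 65, which changed places. For the other peroxiredoxins it was Tsacc for Prdx1 (r = 0.953, at no more than 2.56 CPM), Med20 for Prdx2 (r = 0.989), Abcb8 for Prdx3 (r = 0.908), Cnot2 for Prdx4 (r = 0.993) and Por for Prdx5 (r = 0.997). For the other 4 genes it was Gm8730 for Txn1 (r = 0.983), Washc4 for Txnrd1 (r = 0.976), Pabpn1 for Sod1 (r = 0.984) and Wasf2 for Cat (r = 0.971).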

How the data were processed

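Prostate RNA of 8 NOD mice was enriched for poly(A) and sequenced as paired reads of 150 nt. Per the labels, the authors trimmed reads with fastp, aligned them with STAR 2.6.1d to mm10 (GRCm38) and deposited whole-number read counts per gene from featureCounts 1.5.0-p3, not normalized. The annotation release and the use of strand in counting are not given in the sources used here. Of 54532 gene IDs, 54495 were found in GENCODE M21, which gave symbols, positions and lengths, and the other 37 held 0.00429% of the counts. Groups came from the labels, which give each animal a number but do not say how the animals were housed or processed, so p-values measure the spread between these 8 samples. The 10 genes, the other gene lists and the marker lists were chosen with earlier results of these data known.

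Genes were filtered with filterByExpr (minimum count 10) and tested with edgeR's quasi-likelihood test (edgeR 4.0.16, R 4.3.3) on TMM factors of 0.917 to 1.10, with Benjamini-Hochberg adjustment over 15472 genes and a threshold of 0.05. The SE of a log2 fold change was its size divided by the square root of the quasi-likelihood F. The fit was tested on simulated data with 200 changed genes. Intervals of shares are Wilson intervals and cover counting error only. Correlations over mice were tested two-sided by exact permutation. Named genes were all 10 members, up to 3 genes of each other list by smallest unadjusted p, the gene closest in pattern to each member, and overlapping genes or copies. Alternatives were DESeq2 1.42.0, other scaling factors and filters, removal of the trend with gene length, a split by animal number as a covariate and leaving out each mouse. Detection in a mouse means at least 1 count.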

Additional observations from a re-analysis of the deposited data

How the results depend on the processing

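With edgeR 0 genes were called in the reported analysis and with each mouse left out, and DESeq2 called 21 genes, of which 0 were members, and the cause was not tested. Of 90 member fold changes under 9 alternatives, 86 kept their sign, though small values moved by over 1.5 times. The others were Prdx1 (−0.042) and Prdx3 (−0.035) with library size alone, which also took Prdx2 from −0.026 to −0.12 and Cat from −0.058 to −0.13, and Prdx2 with the length trend removed, by exon length (0.0049) or by principal length (0.059), the latter chosen after seeing the data. Cat was −0.094 with animal number as a covariate, and Prdx3 0.20 with the length trend removed by exon length. RLE and upper-quartile factors and DESeq2 left Prdx1 at 0.018 to 0.023, Prdx2 at −0.048 to −0.042 and Prdx3 at 0.020 to 0.025. The median of the members was −0.0088 and −0.048 with these length corrections, beside −0.13. With the longest transcript as length, 6 of 10 genes kept their place in the order per kb.

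With each mouse left out, 0 members were called and the log2 fold change ran from −0.038 to 0.10 in Prdx1, −0.14 to 0.069 in Prdx2, −0.041 to 0.088 in Prdx3, −0.48 to −0.021 in Prdx4, −0.47 to −0.24 in Prdx5, −0.62 to 0.012 in Prdx6, −0.34 to −0.19 in Txn1, 0.14 to 0.38 in Txnrd1, −0.50 to −0.28 in Sod1, −0.27 to 0.16 in Cat and −0.17 to −0.064 in the median. The sign turned in Prdx2 without control 1 or etanercept 52, Prdx6 without control 1, Prdx3 without control 3 or etanercept 19, Cat without control 3, control 69 or etanercept 17, and Prdx1 without control 65 or etanercept 17. Sod1 had an unadjusted p of 0.0467 without control 3, 0.0295 without control 69 (edgeR) and 0.048 in DESeq2, and Prdx5 one of 0.0495 with library size alone. No paired analysis was possible because the groups share no animal number. With 4 mice per group the SE of the log2 fold change of Prdx6 was 0.54, although each mouse had at least 42351 counts of this gene.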

Other observations

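Some genes of the wider system were at or near 0 counts in these prostates. Gpx5, Gpx6, Gsta1, Gstm3, Mt4 and Nox3 had 0 counts in all 8 mice, where 3 counts would be 1.19e-05% to 2.18e-05% of a mouse's total.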
